A study of Mus musculus with 9 samples.

Results

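The proteasome and immunoproteasome genes described here were the protein-coding genes of GENCODE M21 whose symbols begin with Psma, Psmb, Psmc, Psmd, Psme, Psmf or Psmg followed by a digit. The choice took 50 of 45321 genes by name alone. Of the 50 genes, 5 were set against the other 45, namely Psmb8, Psmb9 and Psmb10, which encode the catalytic subunits of the immunoproteasome, and Psme1 and Psme2, which encode the alpha and beta subunits of the PA28 activator. A filter on low counts passed 49 of the 50 genes, all but Psma8, a testis-type alpha subunit gene that gave 0 counts in 8 of 9 libraries. The choice by name also took Psmc3ip, a recombination factor gene that encodes no proteasome subunit, and Psme2b, a retrocopy of Psme2.

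The RNA came from spleens of C57BL/6 mice, from which CD4+ T cells had been isolated by a method that leaves them untouched, and no mouse in any group carried a labelled mutation or transgene. All cells spent 1 h with DMSO (vehicle) or with 12.5 µM Compound 10, described by the submitters as a chemical inhibitor of the NFAT:AP-1 complex of transcription factors. They then stayed unstimulated or received 10 nM PMA, a phorbol ester, and 1 µM ionomycin, a calcium ionophore, for 2 h. The groups were unstimulated vehicle (2 libraries), unstimulated compound 10 (2), stimulated vehicle (2) and stimulated compound 10 (3), from mice whose age is not given in the sources used here. Separate mice or cultures for the libraries of a group are not named in the labels, so the p-values reflect sample-to-sample spread alone, and that spread may be technical.

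The proteasome degrades proteins that carry ubiquitin chains. Its 20S core is a stack of alpha rings, which gate the chamber, and beta rings, which hold the catalytic subunits, and the 19S cap recognises, unfolds and feeds in substrates through a ring of ATPases and a set of non-ATPase subunits. In lymphocytes and in cells exposed to interferon gamma, Psmb8, Psmb9 and Psmb10 replace the constitutive catalytic subunits Psmb5, Psmb6 and Psmb7, and PA28 can open the core in place of the 19S cap, which changes the peptides supplied to MHC class I molecules.

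Promoters are shown for 3 members that the comparisons below set against each other, the constitutive catalytic gene Psmb5, the gene of its immunoproteasome replacement Psmb8, and the PA28 gene Psme1. The sequences are from RefSeq (GRCm38.p6), cover 250 bases before to 50 bases after the annotated start, and are printed 5′ to 3′ on the strand of the gene. Capitals mark matches to 4 motifs, each searched on both strands, namely GAAANNGAA (core of the interferon-stimulated response element), TTCNNNGAA (gamma-activated site), TGACNNNGC (core of the antioxidant response element) and TGANTCA (AP-1).
Psmb5, chr14:54617946-54618245 (- strand): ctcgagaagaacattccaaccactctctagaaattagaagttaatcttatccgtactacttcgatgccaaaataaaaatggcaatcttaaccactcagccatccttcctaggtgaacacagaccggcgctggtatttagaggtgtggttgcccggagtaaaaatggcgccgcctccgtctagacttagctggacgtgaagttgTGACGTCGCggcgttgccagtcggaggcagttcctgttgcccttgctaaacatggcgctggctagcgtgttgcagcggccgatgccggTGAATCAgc
Psmb8, chr17:34197945-34198244 (+ strand): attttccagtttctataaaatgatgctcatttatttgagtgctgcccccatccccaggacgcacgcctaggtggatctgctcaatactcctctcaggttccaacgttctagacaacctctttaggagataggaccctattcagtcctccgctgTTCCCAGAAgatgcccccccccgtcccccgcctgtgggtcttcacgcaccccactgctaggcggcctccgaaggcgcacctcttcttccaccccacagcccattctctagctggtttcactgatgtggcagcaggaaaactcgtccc
Psme1, chr14:55578244-55578543 (+ strand): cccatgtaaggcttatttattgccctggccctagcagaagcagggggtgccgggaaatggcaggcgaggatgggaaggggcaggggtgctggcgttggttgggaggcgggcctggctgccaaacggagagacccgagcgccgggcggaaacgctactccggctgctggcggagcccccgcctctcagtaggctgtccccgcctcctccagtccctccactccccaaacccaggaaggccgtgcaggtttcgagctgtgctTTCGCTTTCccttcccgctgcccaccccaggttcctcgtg

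In the Psmb5 window the capitals mark an antioxidant response element core and an AP-1 motif, in the Psmb8 window a gamma-activated site, and in the Psme1 window an interferon-stimulated response element core on the opposite strand. The AP-1 match of Psmb5 and the match of Psme1 lie after the annotated start, at offsets of 41 and 10 bases. RefSeq promoters were found for 42 of the 50 genes, in 45 windows. The interferon-stimulated response element core occurred in 7 of the 42 genes (Psmb3, Psmb4, Psmc2, Psmd4, Psmd9, Psme1 and Psmg4). That was 15.6% of the 45 windows, against 8.56% of all 32851 windows of the same length. The gamma-activated site occurred in 3 genes (Psmb8, Psmd2 and Psmg1), in 6.67% of windows against 8.30%. The antioxidant response element core occurred in 6 genes (Psmb5, Psmb6, Psmc6, Psmd12, Psmd9 and Psme4), in 13.3% of windows against 12.4%. The AP-1 motif occurred in 2 genes (Psmb5 and Psmd9), in 4.44% of windows against 7.81%. The RefSeq windows of Psmb8 and Psme1 begin after the GENCODE starts of these genes, at chr17:34197721 and chr14:55578123, so all bases before the earliest annotated start of either gene are outside its window. A match is a run of letters and says nothing of binding.

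Estimated counts per library ranged from 10669821 to 21852830. The tested members had between 13 and 7682 counts in a library, and 42 of them had at least 100 counts in every library. Nuclear ribosomal RNA took 1.78% to 26.3% of the counts, with the highest shares in the second library of each vehicle group (26.3% unstimulated and 13.8% stimulated). Markers of CD4+ T cells (6 of 6 genes tested) summed to 573 to 606 CPM unstimulated and 1234 to 1693 CPM stimulated in vehicle, and to 1007 to 1153 and 1827 to 1866 CPM with the compound. Of these markers 5 were higher with the compound in stimulated and 4 in unstimulated cells. CPM here stands for reads relative to library size, after scaling between libraries. B cell markers, which include Ighm and Cd74, summed to between 646 and 1700.5 CPM, with vehicle and compound overlapping in both states. CD8, myeloid, neutrophil, erythroid and natural killer lists each stayed under 24 CPM in every library, and 4 natural killer genes were higher with the compound in stimulated cells (17.7 to 23.8 against 5.90 to 7.91 CPM summed). No list held a tested gene at 0 in every library. The part of these cell types in the proteasome values was not tested. In bulk RNA, fewer cells of a type and less RNA per cell cannot be told apart.

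In stimulated cells most other proteasome genes were lower with compound 10, while the 3 immunoproteasome catalytic genes and the PA28 genes did not pass the test. Of 49 members tested, 26 were lower and 0 higher in stimulated compound 10 than in stimulated vehicle, where 11.4% of all 14011 genes tested were lower and 11.7% higher (edgeR quasi-likelihood test, Benjamini-Hochberg adjusted p under 0.05). Values given for genes from here on are log2 fold changes unless a unit is named. All 26 belonged to the 44 other members, with a median log2 fold change of -0.68 and a range from -1.40 to 0.35. Of the 5 immunoproteasome and PA28 genes, 0 passed, with a median of -0.11 and a range from -0.47 to -0.02, while the median of all genes tested was 0.00. At an unadjusted p under 0.05 the counts were 31 lower and 0 higher over all members, and 1 lower (Psme2) among the 5. DESeq2 gave 29 lower and 0 higher, Psme2 included, and limma on log2(TPM + 1) gave 11 lower and 0 higher. TPM also correct for transcript length, but unlike the CPM here they were not scaled between libraries. The limma values therefore differ from those of edgeR in scaling as well as in the test, here and below, and the part of each was not tested. The difference between the 5 genes and the other 44 was not tested as such. Without overlap between the stimulated groups, 63.3% of members were lower and 2.04% higher with the compound, against 23.1% and 24.2% of all genes tested.

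In unstimulated cells the compound effect ran the same way over fewer genes. There, 8 members were lower and 0 higher with the compound, against 2.91% lower and 4.45% higher among all genes tested. The median was -0.37 over all members and over the other 44, with -0.01 over all genes. Of the 5 immunoproteasome and PA28 genes 0 passed, with a median of -0.25, and 2 were lower at an unadjusted p under 0.05 and 0 with DESeq2. The 3 catalytic genes among them had a median of -0.48, below that of the other 44 members. The 8 genes were Psmd10, Psmg3, Psma5, Psmd9, Psmb7, Psmc2, Psma6 and Psma2, the last pair named after their values were seen. At an unadjusted p under 0.05, 18 members were lower and 0 higher, and DESeq2 gave 12 lower and 0 higher. Without overlap between the unstimulated groups, 67.3% of members were lower and 4.08% higher, against 27.3% and 28.2% of all genes tested. The count rested on each library of the comparison. It was 0 without the first or the second unstimulated compound 10 library, 0 without the first unstimulated vehicle library and 1 without the second, and limma on log2(TPM + 1) gave 0 lower and 0 higher.

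**Figure D1:**
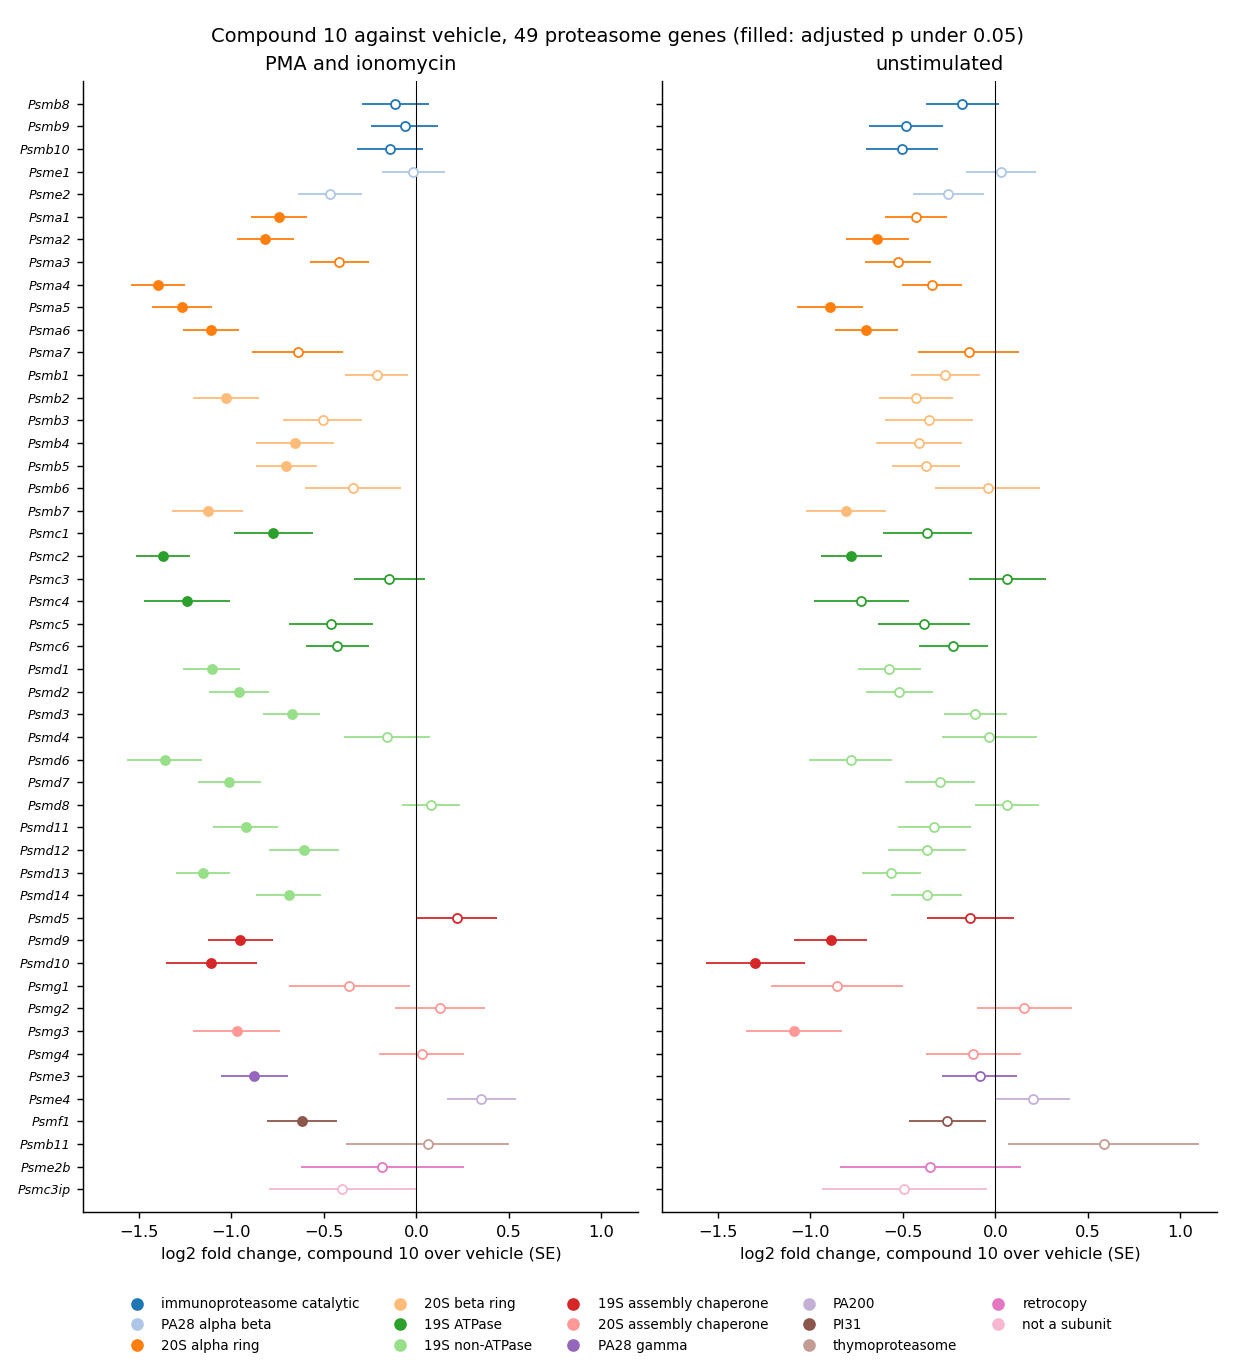
Log2 fold change of compound 10 over vehicle for the 49 proteasome genes tested, in stimulated cells (left) and unstimulated cells (right). Bars are SE, filled points passed an adjusted p of 0.05, and colours mark the role of each gene. Filled points lie left of 0 in both panels (26 and 8 genes), and the 5 immunoproteasome and PA28 genes at the top are open in both. Of these 5, all 5 in stimulated and 4 in unstimulated cells lie below 0 without passing.

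Members called for stimulation went in both directions, and in vehicle at shares no higher than those of all genes tested. In vehicle 7 members (14.3%) were higher and 4 (8.16%) lower after PMA and ionomycin, against 14.4% and 13.8% of all genes tested. Under the compound 3 (6.12%) were higher and 7 (14.3%) lower, against 11% and 10.8%. The split moved with the scaling between libraries, in vehicle to 9 higher and 2 lower with median-of-ratios and 4 higher and 5 lower with upper-quartile factors, and under the compound to 5 higher and 7 lower with upper-quartile factors. With limma on log2(TPM + 1) it was 1 higher and 3 lower in vehicle and 0 higher and 7 lower under the compound, and all genes then had medians of -0.17 and -0.21. The count of 11 in vehicle became 5 without the first or the second unstimulated vehicle library, 5 without the first and 4 without the second stimulated vehicle library. It became 6 without the first or the second unstimulated compound 10 library, 17 without stimulated compound 10 library 2 and 6 without library 3. The count of 10 under the compound became 2 without either unstimulated compound 10 library, and 5 without stimulated compound 10 library 1 or 3. Members higher and lower after stimulation without overlap were 46.9% and 24.5% in vehicle, against 29.3% and 34.1% of all genes tested. Under the compound they were 18.4% and 38.8%, against 24.2% and 25.4%.

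The alpha ring genes, whose products form the gate of the core, included the member with the lowest compound value. Of 7 alpha genes tested, 5 were lower with the compound in stimulated cells (median -0.82) and 3 in unstimulated cells (median -0.53). Psma4 gave 76.4 and 74.1 CPM unstimulated and 111 and 113 CPM stimulated in vehicle, against 60.3 and 58.3 CPM unstimulated and 44.4, 40.1 and 43.0 CPM stimulated with the compound. Stimulated vehicle was the highest group and stimulated compound 10 the lowest, and no 2 groups overlapped. Psma4 fell with the compound in stimulated cells, with a log2 fold change of -1.40 (SE 0.15, adjusted p = 8.74e-05), and its value in unstimulated cells was -0.34 (SE 0.16, adjusted p = 0.23). Psma4 rose with stimulation in vehicle, at 0.57 (SE 0.16, adjusted p = 0.0189), a call lost without any 1 of the 4 vehicle libraries and with limma on log2(TPM + 1), at 0.29. Under the compound it fell with stimulation, at -0.48 (SE 0.15, adjusted p = 0.0336), a value named after it was seen.

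The stimulation responses of Psma4 with and without the compound had opposite signs, and the test of that difference passed. Of 49 members, 1 had a lower and 0 a higher interaction value between stimulation and compound, Psma4 at -1.05 (SE 0.22, adjusted p = 0.0422), against 0.607% of all genes tested with a lower and 0.421% with a higher value. At an unadjusted p under 0.05, 9 members had a lower and 0 a higher value, DESeq2 gave 1 and 0, and limma on log2(TPM + 1) gave 0 and 0. The Psma4 interaction kept its sign in 21 of 21 alternatives (other scalings, filters, tests, transcript sets and sets of libraries), from -1.14 to -0.95, but lost its call in 14 of them. Leaving out any 1 library lost it, except the second stimulated compound 10 library.

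Psma5 gave 140.0 and 128 CPM unstimulated and 196 and 180.0 CPM stimulated in vehicle, against 72.0 and 72.0 CPM unstimulated and 80.9, 68.1 and 85.5 CPM stimulated with the compound. Both compound groups lay under both vehicle groups, without overlap. Its log2 fold change with the compound was -1.27 (SE 0.16, adjusted p = 0.000241) in stimulated and -0.89 (SE 0.18, adjusted p = 0.0127) in unstimulated cells. Its stimulation values, 0.49 (SE 0.18, adjusted p = 0.0568) in vehicle and 0.12 (SE 0.16, adjusted p = 0.668) under the compound, did not pass. The unstimulated call was lost without any 1 of the 4 unstimulated libraries. Psma6 and Psma2 were lower with the compound in both states (-1.11 and -0.70 for Psma6, -0.82 and -0.64 for Psma2), and Psma1 in stimulated cells (-0.74). Psma7 (-0.64) and Psma3 (-0.42) did not pass with edgeR, while DESeq2 called all 7 alpha genes lower.

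**Figure D2:**
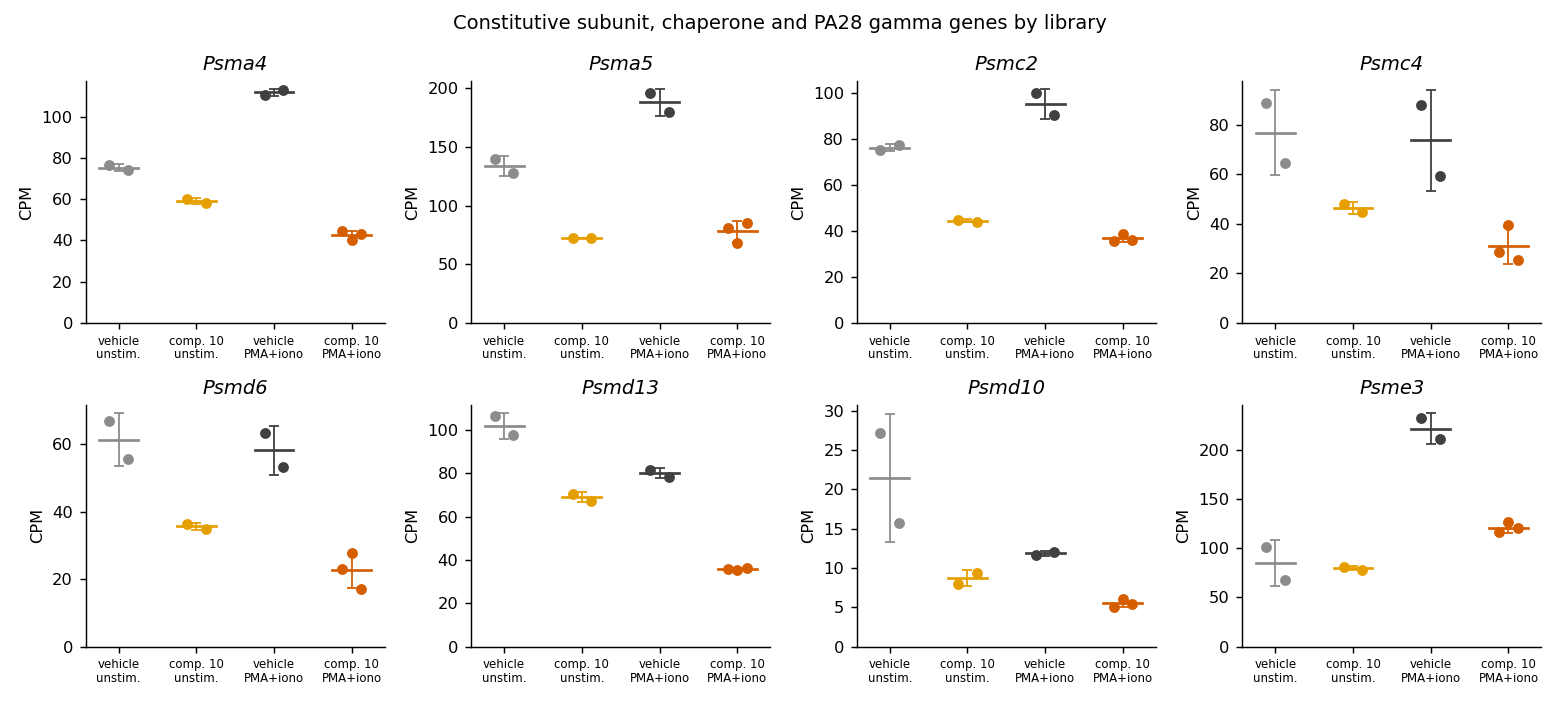
CPM of 8 members in each library (points), with group mean and SD, for unstimulated and stimulated (PMA and ionomycin) cells in vehicle or compound 10. For Psma4, Psma5, Psmc2, Psmc4, Psmd6, Psmd13, Psmd10 and Psme3 the 3 stimulated compound 10 libraries lie below both stimulated vehicle libraries. Of all genes tested, 23.1% were lower and 24.2% higher without overlap in this comparison.

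Of the 7 constitutive beta ring genes, 4 were lower with the compound in stimulated cells (median -0.66) and 1, Psmb7, in unstimulated cells (median -0.37). Of the constitutive catalytic genes, Psmb5 and Psmb7 were lower with the compound in stimulated cells and Psmb6 did not pass. Psmb5 (GENCODE M21, chr14:54614119-54618022) is the gene of the subunit with chymotrypsin-like activity. Its printed window held the antioxidant response element core before the annotated start and the AP-1 motif after it. Psmb5 gave 150.2 and 145 CPM unstimulated and 128 and 99.0 CPM stimulated in vehicle, against 112 and 116 CPM unstimulated and 76.8, 64.3 and 68.4 CPM stimulated with the compound. The stimulated compound 10 libraries were the lowest and overlapped no other group. Its value with the compound was -0.70 (SE 0.17, adjusted p = 0.00932) in stimulated and -0.37 (SE 0.18, adjusted p = 0.256) in unstimulated cells, and it fell with stimulation under the compound, at -0.70 (SE 0.17, adjusted p = 0.00972), with -0.38 (SE 0.18, adjusted p = 0.154) in vehicle. Without the first stimulated vehicle library Psmb5 did not pass with the compound in stimulated cells. Its call for stimulation under the compound was lost without either unstimulated compound 10 library.

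Psmb7, the gene of the subunit with trypsin-like activity, gave 57.5 and 66.1 CPM unstimulated and 81.3 and 101 CPM stimulated in vehicle, against 35.3 and 35.3 CPM unstimulated and 47.6, 32.0 and 45.3 CPM stimulated with the compound. Both compound groups lay under the vehicle group of the same state. Psmb7 fell with the compound, at -1.13 (SE 0.19, adjusted p = 0.00134) in stimulated cells, in all 22 alternatives (from -1.28 to -0.97), and at -0.81 (SE 0.21, adjusted p = 0.0412) in unstimulated cells, in 11 of 22. The unstimulated call was lost without any 1 of the 4 unstimulated libraries or without stimulated compound 10 library 3.

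Psmb6, the gene of the subunit with caspase-like activity, gave 193 and 135 CPM unstimulated and 226 and 160.4 CPM stimulated in vehicle, against 146 and 172 CPM unstimulated and 123, 207 and 127 CPM stimulated with the compound. The second stimulated compound 10 library lay between the stimulated vehicle libraries and the other 2 below them, so the groups overlapped. Its value with the compound, -0.34 (SE 0.26, adjusted p = 0.393) in stimulated and -0.04 (SE 0.29, adjusted p = 0.954) in unstimulated cells, did not pass. Without the second stimulated compound 10 library it was -0.65 (adjusted p = 0.0450) in stimulated cells. Psmb4, the gene of a structural beta subunit, rose with stimulation in vehicle, at 0.71 (SE 0.23, adjusted p = 0.0388), a call lost in 12 of 22 alternatives. Among these were leaving out the first unstimulated vehicle library, either unstimulated compound 10 library, either stimulated vehicle library or stimulated compound 10 library 3, and limma on log2(TPM + 1) gave 0.39. It was lower with the compound in stimulated cells (-0.66), as was Psmb2 (-1.03), and Psmb3 and Psmb1 (-0.51 and -0.21) did not pass.

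Each immunoproteasome catalytic gene had compound values that missed the threshold in both states (edgeR and DESeq2 each called 0 of 3, and at an unadjusted p under 0.05 there were 0 in stimulated cells and 2 lower in unstimulated cells). Psmb8 (chr17:34197721-34201454) encodes the replacement of Psmb5, carried the gamma-activated site in its printed window and had the highest TPM of the 3 in every library. It gave 233 and 181 CPM unstimulated and 165 and 129 CPM stimulated in vehicle, against 190.2 and 176 CPM unstimulated and 139, 139 and 129 CPM stimulated with the compound. The stimulated groups lay below the unstimulated ones, and vehicle and compound overlapped within each state. Its compound values were -0.11 (SE 0.18, adjusted p = 0.711) in stimulated and -0.18 (SE 0.20, adjusted p = 0.649) in unstimulated cells, and its stimulation values were -0.50 (SE 0.20, adjusted p = 0.0812) in vehicle and -0.43 (SE 0.18, adjusted p = 0.107) under the compound.

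Psmb9 (chr17:34181987-34187764), the replacement of Psmb6, gave 56.5 and 42.8 CPM unstimulated and 49.0 and 47.7 CPM stimulated in vehicle, against 37.0 and 34.0 CPM unstimulated and 50.5, 49.2 and 39.0 CPM stimulated with the compound. Unstimulated compound 10 lay below unstimulated vehicle, and the stimulated groups overlapped. The compound values were -0.06 (SE 0.18, adjusted p = 0.845) in stimulated and -0.48 (SE 0.20, adjusted p = 0.169) in unstimulated cells, and the stimulation values -0.04 (SE 0.20, adjusted p = 0.919) in vehicle and 0.38 (SE 0.18, adjusted p = 0.165) under the compound. With upper-quartile scaling the stimulated compound value of Psmb9 was 0.03. Exons of Psmb9 overlap 212 bases of Tap1 on the opposite strand, and Tap1 drew a mean of 160.1 CPM of reads and Psmb9 45.1. The counting is not stated to use strand, so reads of that stretch cannot be told apart and Psmb9 is uncertain.

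Psmb10 (chr8:105935735-105938444), the replacement of Psmb7, gave 47.6 and 47.2 CPM unstimulated and 30.1 and 24.3 CPM stimulated in vehicle, against 34.7 and 32.1 CPM unstimulated and 26.8, 26.3 and 20.7 CPM stimulated with the compound. Unstimulated vehicle was the highest group and overlapped no other, and the 2 stimulated groups overlapped. Psmb10 fell with stimulation in vehicle, at -0.80 (SE 0.20, adjusted p = 0.00919). With edgeR as used here it was the one immunoproteasome catalytic gene to pass in any of the 5 comparisons. That call was lost without the second stimulated vehicle library. Psmb8 also passed for stimulation in vehicle with upper-quartile scaling, and with at least 10 counts required in every library. Psmb9 passed for stimulation under the compound from coding transcripts alone. Under the compound the stimulation value of Psmb10 was -0.44 (SE 0.18, adjusted p = 0.101). The compound values of Psmb10 were -0.14 (SE 0.18, adjusted p = 0.629) in stimulated and -0.51 (SE 0.20, adjusted p = 0.143) in unstimulated cells.

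**Figure D3:**
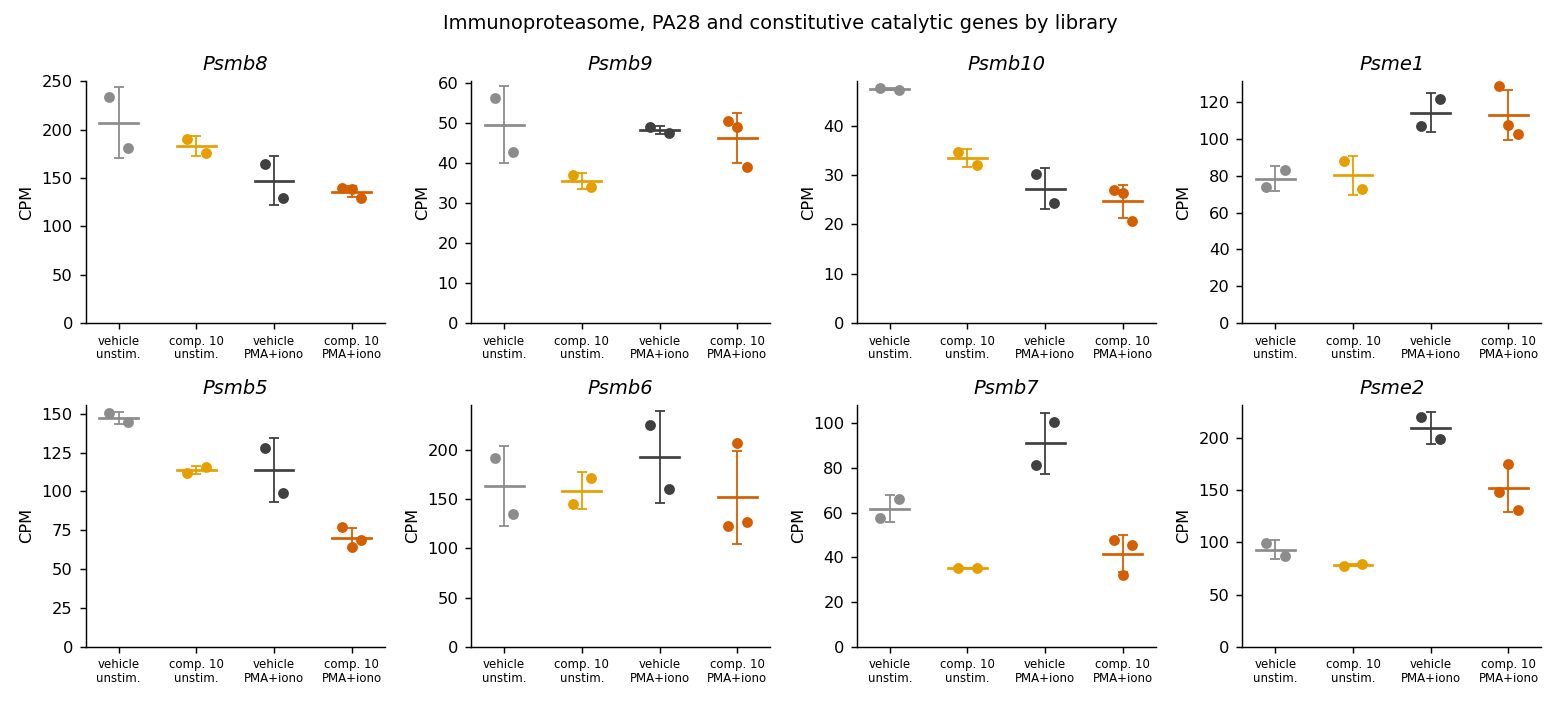
CPM of Psmb8, Psmb9, Psmb10, Psme1, Psme2 and the constitutive catalytic genes Psmb5, Psmb6 and Psmb7 in each library (points), with group mean and SD, in vehicle or compound 10, unstimulated or with PMA and ionomycin. The stimulated groups overlap for Psmb8, Psmb9, Psmb10, Psme1 and Psmb6 and are apart for Psmb5, Psmb7 and Psme2. Of all genes tested, 23.1% were lower and 24.2% higher without overlap between the stimulated groups.

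As a description per library, the level of each immunoproteasome gene was set against its constitutive counterpart as a log2 ratio of TPM, which counts per unit of length. Psmb8 to Psmb5 was -0.05 and -0.31 unstimulated and -0.29 and -0.30 stimulated in vehicle, against 0.12 and -0.06 unstimulated and 0.25, 0.48 and 0.23 stimulated with the compound. Psmb8 was the lower of the pair in both vehicle groups and the higher in every stimulated compound 10 library. Psmb10 to Psmb7 was -0.45 and -0.64 unstimulated and -1.64 and -2.21 stimulated in vehicle, against -0.19 and -0.29 unstimulated and -1.08, -0.44 and -1.36 stimulated with the compound. This ratio was lowest in stimulated vehicle, where Psmb10 was low and Psmb7 high, and every stimulated compound 10 library lay above both stimulated vehicle libraries. Psmb9 to Psmb6 ranged from -3.25 to -2.05 over the 9 libraries, with the stimulated groups overlapping. The 32 constitutive 20S and 19S genes summed to 3735 and 3301 CPM unstimulated and 4411 and 3868 CPM stimulated in vehicle, against 2710.2 and 2720.3 CPM unstimulated and 2475, 2781 and 2529 CPM stimulated with the compound. For Psmb8, Psmb9 and Psmb10 the sums were 337 and 271, 244 and 201, 262 and 242, and 217, 214 and 189 CPM in the same order. In stimulated cells the constitutive sums were apart and those of the immunoproteasome catalytic genes overlapped. In unstimulated cells both sums were lower with the compound, without overlap.

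**Figure D4:**
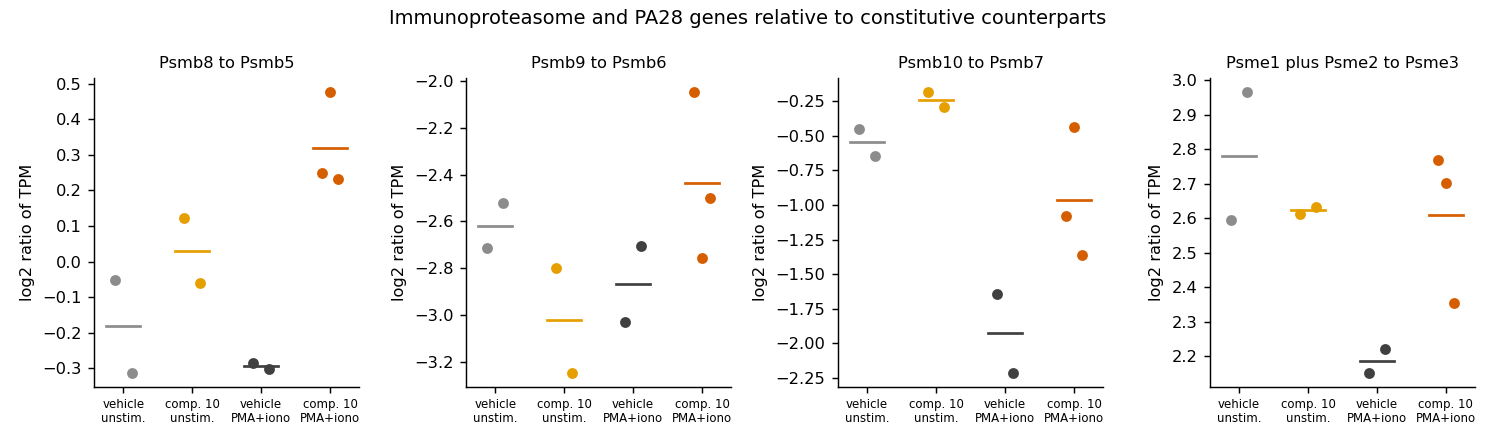
Log2 ratio of TPM in each library (points) with group mean (line) for Psmb8 to Psmb5, Psmb9 to Psmb6, Psmb10 to Psmb7 and the sum of Psme1 and Psme2 to Psme3. In stimulated cells the compound 10 points lie above the vehicle points for every ratio except Psmb9 to Psmb6, where 1 compound point lies between the vehicle points.

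The ATPase genes of the 19S cap encode the ring that unfolds substrates. Of 6 tested, 3 were lower with the compound in stimulated cells (median -0.62) and 1 in unstimulated cells (median -0.38), and 0 passed for stimulation (unadjusted, 1 higher in vehicle and 1 lower under the compound, and with DESeq2 0). Psmc2 gave 75.2 and 77.3 CPM unstimulated and 99.9 and 90.6 CPM stimulated in vehicle, against 44.9 and 43.9 CPM unstimulated and 35.6, 38.8 and 36.1 CPM stimulated with the compound. The compound groups lay below the vehicle groups in both states, and the stimulated compound 10 libraries were the lowest. The log2 fold change of Psmc2 with the compound was -1.37 (SE 0.15, adjusted p = 0.000104) in stimulated and -0.78 (SE 0.16, adjusted p = 0.0153) in unstimulated cells, the latter not called without any 1 of the 4 unstimulated libraries. Psmc4 gave 89.0 and 64.7 CPM unstimulated and 88.3 and 59.4 CPM stimulated in vehicle, against 48.2 and 44.8 CPM unstimulated and 28.8, 39.5 and 25.3 CPM stimulated with the compound. All 5 compound libraries lay below all 4 vehicle libraries. Its values were -1.24 (SE 0.23, adjusted p = 0.00235) in stimulated and -0.72 (SE 0.26, adjusted p = 0.11) in unstimulated cells. Psmc1 was also lower in stimulated cells (-0.77), and Psmc5, Psmc6 and Psmc3 (-0.46, -0.43 and -0.15) did not pass.

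The non-ATPase subunits of the cap, among them the scaffold subunits Psmd1 and Psmd2, the ubiquitin receptor Psmd4 and the deubiquitinase Psmd14, were mostly lower with the compound in stimulated cells. Of 11 tested, 9 were lower there (median -0.92), all but Psmd4 (-0.16) and Psmd8 (0.08). In unstimulated cells 0 of 11 passed with edgeR, with a median of -0.37. At an unadjusted p under 0.05, 4 of the 11 were lower there and 0 higher, and DESeq2 gave 3 lower and 0 higher. Psmd6, a lid subunit gene, gave 66.8 and 55.7 CPM unstimulated and 63.4 and 53.1 CPM stimulated in vehicle, against 36.4 and 34.9 CPM unstimulated and 23.1, 27.6 and 17.2 CPM stimulated with the compound. The compound groups lay below both vehicle groups, stimulated compound 10 lowest. Its compound value was -1.36 (SE 0.20, adjusted p = 0.000586) in stimulated and -0.78 (SE 0.22, adjusted p = 0.0531) in unstimulated cells, and it fell with stimulation under the compound, at -0.65 (SE 0.20, adjusted p = 0.0372). This last call was lost without either unstimulated compound 10 library, or without stimulated compound 10 library 1 or 3.

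Psmd13, another lid gene, gave 106 and 97.7 CPM unstimulated and 81.7 and 78.4 CPM stimulated in vehicle, against 70.6 and 67.5 CPM unstimulated and 35.8, 35.6 and 36.5 CPM stimulated with the compound. The 3 stimulated compound 10 libraries were nearly equal and the lowest, and no 2 groups overlapped. Psmd13 fell with the compound in stimulated cells, at -1.15 (SE 0.15, adjusted p = 0.000236), with -0.56 (SE 0.16, adjusted p = 0.0532) in unstimulated cells. It fell with stimulation under the compound, at -0.94 (SE 0.15, adjusted p = 0.000688), in all 22 alternatives, with -0.35 (SE 0.16, adjusted p = 0.127) in vehicle. Psma4, Psmc2, Psmd6, Psma5, Psmc4 and Psmd13, the 6 members with the lowest compound values in stimulated cells, each kept that call in all 22 alternatives. The other compound-lowered cap genes in stimulated cells lay between -1.11 (Psmd1) and -0.61 (Psmd12), with Psmd7, Psmd2, Psmd11, Psmd14 and Psmd3 between.

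Psmd12 and Psmd8, lid genes, rose with stimulation in vehicle, Psmd12 at 0.68 (SE 0.21, adjusted p = 0.0297) and Psmd8 at 0.50 (SE 0.17, adjusted p = 0.0475), the latter named after its values were seen. The Psmd12 call was lost without the second unstimulated or the first stimulated vehicle library, and with limma on log2(TPM + 1), at 0.43. Psmd8 gave 102 and 96.8 CPM unstimulated and 154 and 128 CPM stimulated in vehicle, against 106 and 102 CPM unstimulated and 156, 144 and 147 CPM stimulated with the compound. Each stimulated library lay above each unstimulated one, with the compound groups overlapping the vehicle groups in stimulated cells. Psmd8 also rose under the compound, at 0.52 (SE 0.16, adjusted p = 0.0352), a call that 8 of 22 alternatives lost, among them those without either unstimulated compound 10 library or without stimulated compound 10 library 1 or 3, and limma on log2(TPM + 1), where it was 0.12. Psmd3 fell with stimulation under the compound, at -0.65 (SE 0.15, adjusted p = 0.0101), a call lost without either unstimulated compound 10 library.

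Of the PA28 activator genes, both passed for stimulation in vehicle and Psme2 under the compound. Psme2, the beta subunit gene (chr14:55587441-55591113), gave 99.8 and 86.6 CPM unstimulated and 220.4 and 199 CPM stimulated in vehicle, against 77.5 and 78.9 CPM unstimulated and 148, 176 and 131 CPM stimulated with the compound. All stimulated libraries lay above all unstimulated ones, and stimulated compound 10 lay below stimulated vehicle. Psme2 rose with stimulation by 1.17 (SE 0.19, adjusted p = 0.000783) in vehicle and 0.96 (SE 0.18, adjusted p = 0.00239) under the compound. With limma on log2(TPM + 1) these values were 0.90 (adjusted p = 0.0691) and 0.61 (adjusted p = 0.18), and neither passed. Its compound value in stimulated cells was -0.47 (SE 0.17, adjusted p = 0.0696), which did not pass with edgeR and passed with DESeq2 (-0.48, adjusted p = 0.0432) and without the second stimulated compound 10 library (-0.61, adjusted p = 0.0178). In unstimulated cells it was -0.25 (SE 0.19, adjusted p = 0.478). Psme1, the alpha subunit gene (chr14:55578123-55581529), whose printed promoter held the interferon-stimulated response element core, gave 73.8 and 83.2 CPM unstimulated and 107 and 122 CPM stimulated in vehicle, against 87.8 and 72.8 CPM unstimulated and 129, 108 and 103 CPM stimulated with the compound. The stimulated groups lay above the unstimulated ones and overlapped each other. Psme1 rose with stimulation in vehicle, at 0.54 (SE 0.19, adjusted p = 0.0489), a call lost in 15 of 22 alternatives, among them leaving out any library but the second stimulated compound 10 library, and limma on log2(TPM + 1), where the value was 0.15. Its stimulation value under the compound was 0.49 (SE 0.17, adjusted p = 0.0618). Its compound values were -0.02 (SE 0.17, adjusted p = 0.962) in stimulated cells, 0.07 there with upper-quartile scaling, and 0.03 (SE 0.19, adjusted p = 0.946) in unstimulated cells.

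Psme3 encodes PA28 gamma, a nuclear activator outside the 5 genes set apart. It gave 101 and 68.1 CPM unstimulated and 232 and 211 CPM stimulated in vehicle, against 81.3 and 78.2 CPM unstimulated and 116, 126 and 120.0 CPM stimulated with the compound. Stimulated vehicle was the highest group, stimulated compound 10 came next, and the unstimulated groups overlapped. Psme3 rose with stimulation in vehicle by 1.39 (SE 0.20, adjusted p = 0.000374), in all 22 alternatives, and under the compound by 0.60 (SE 0.19, adjusted p = 0.0378), in 13 of 22. The call under the compound was lost without any 1 of the 5 compound libraries. With the compound it was lower in stimulated cells, at -0.88 (SE 0.18, adjusted p = 0.00445), and its value in unstimulated cells was -0.08 (SE 0.20, adjusted p = 0.856). The interaction of Psme3 was -0.79 (SE 0.27, adjusted p = 0.193) and did not pass. Psme4, the gene of the activator PA200, had a compound value of 0.35 (SE 0.19, adjusted p = 0.21) in stimulated cells, above 0 without passing. Psmf1, the gene of the inhibitor PI31, was lower with the compound in stimulated cells (-0.62) and fell with stimulation under the compound, at -0.63 (SE 0.19, adjusted p = 0.0315). The stimulation call was lost without either unstimulated, or without the first or second stimulated, compound 10 library.

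**Figure D5:**
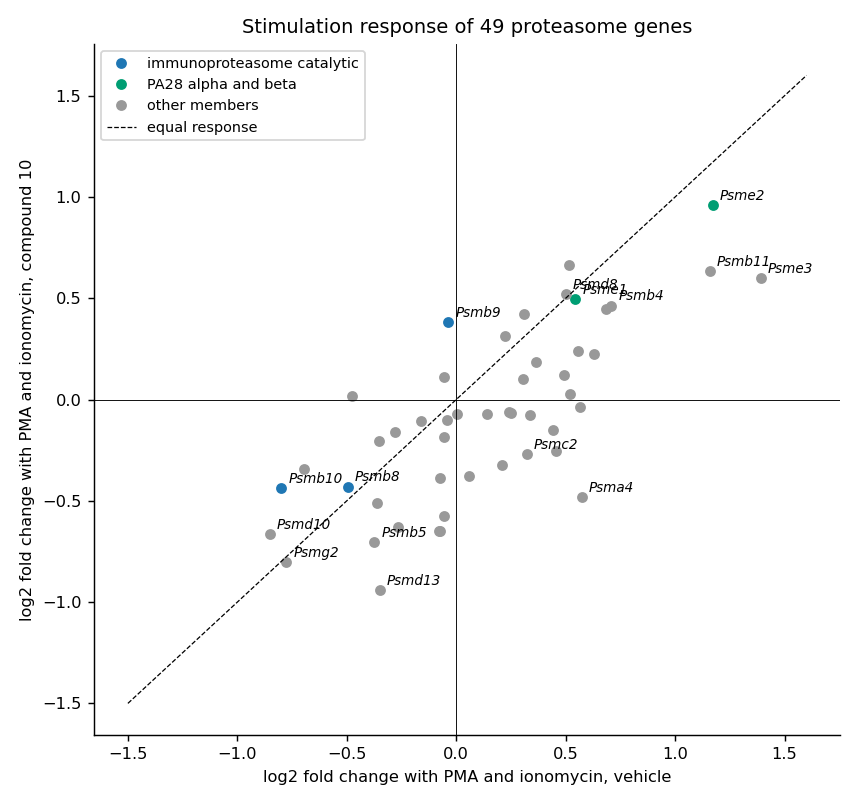
Log2 fold change with PMA and ionomycin in vehicle (x axis) against that under compound 10 (y axis) for the 49 proteasome genes tested, with the line of equal response. Psme2 and Psme3 lie furthest right, Psma4 lies at 0.57 and -0.48, and 35 of the 49 points lie below the line.

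Assembly chaperones held the lowest compound values in unstimulated cells. Psmd10, which encodes gankyrin, a chaperone of the 19S ATPases, gave 27.2 and 15.7 CPM unstimulated and 11.6 and 12.1 CPM stimulated in vehicle, against 7.99 and 9.41 CPM unstimulated and 5.05, 5.99 and 5.41 CPM stimulated with the compound. Unstimulated vehicle was the highest group with its libraries far apart, and stimulated compound 10 was the lowest. Psmd10 fell with the compound, at -1.30 (SE 0.27, adjusted p = 0.0145) in unstimulated and -1.11 (SE 0.25, adjusted p = 0.00665) in stimulated cells, and with stimulation in vehicle, at -0.85 (SE 0.26, adjusted p = 0.0298). The unstimulated call was lost without the first unstimulated vehicle library or either unstimulated compound 10 library. The call for stimulation was lost without the first unstimulated vehicle library or either stimulated vehicle library.

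Psmd9, the gene of another 19S ATPase chaperone, gave 23.3 and 22.9 CPM unstimulated and 20.9 and 24.0 CPM stimulated in vehicle, against 12.5 and 12.4 CPM unstimulated and 11.7, 10.7 and 12.4 CPM stimulated with the compound. All compound libraries lay between 10.7 and 12.5 CPM, all vehicle libraries between 20.9 and 24.0. Psmd9 fell with the compound, at -0.95 (SE 0.18, adjusted p = 0.00226) in stimulated and -0.89 (SE 0.20, adjusted p = 0.0186) in unstimulated cells. The remaining 19S chaperone gene, Psmd5, had compound values of 0.22 (SE 0.22, adjusted p = 0.538) and -0.14 (SE 0.24, adjusted p = 0.792) and was lower after stimulation in vehicle, at -0.69 (SE 0.24, adjusted p = 0.0461). That call was lost in 12 of 22 alternatives, among them leaving out any library but the first stimulated vehicle or the second stimulated compound 10 library.

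Among the 20S chaperone genes, Psmg3 gave 16.1 and 13.4 CPM unstimulated and 12.5 and 11.8 CPM stimulated in vehicle, against 7.08 and 6.81 CPM unstimulated and 6.81, 4.56 and 7.33 CPM stimulated with the compound. All compound libraries lay below all vehicle libraries. Psmg3 fell with the compound, at -1.09 (SE 0.26, adjusted p = 0.0274) in unstimulated and -0.97 (SE 0.24, adjusted p = 0.0105) in stimulated cells. The unstimulated calls of Psmd9 and Psmg3 were both lost without any 1 of the 4 unstimulated libraries. The Psmg3 call was lost in 9 of 22 alternatives, coding transcripts alone among them. Transcripts annotated as retained introns held 39.4% and 30.6% of Psmg3 counts in unstimulated vehicle and 13.9% and 14.9% in unstimulated compound 10. Psmg2, which pairs with Psmg1 in building the alpha ring, fell with stimulation in vehicle, at -0.78 (SE 0.26, adjusted p = 0.0439) and under the compound, at -0.80 (SE 0.24, adjusted p = 0.0287), and these calls were lost in 12 and 5 of 22 alternatives. The vehicle call was lost without any 1 of the 4 unstimulated libraries, the second stimulated vehicle library or stimulated compound 10 library 3. The call under the compound was lost without either unstimulated compound 10 library, or without stimulated compound 10 library 2 or 3. Psmg1 and Psmg4 passed in none of the 5 comparisons, nor did Psmb11, the gene of the thymus-specific subunit, which lay between 0.839 and 2.80 CPM. Psmc3ip lay between 1.30 and 2.82 CPM, and its exons overlap 385 bases of Mlx, an opposite-strand gene with a mean of 37.6 CPM. Exons of Psmd9 overlap 1849 bases of Gm26745 on the opposite strand, which had a mean of 1.17 CPM. Psme2b lay between 2.09 and 5.86 CPM, and the split of reads between Psme2 and this copy is uncertain.

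Across the 49 members the compound values in stimulated and unstimulated cells, which share no library, had Pearson r = 0.70 and Spearman rho = 0.69, against 0.41 and 0.49 across all 14011 genes tested. Stimulation values in vehicle and under the compound, which also share no library, had r = 0.75 and rho = 0.75 across members, against 0.65 and 0.63 across all genes. These are descriptions across genes, which are not independent replicates.

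Summed over the members, reads assigned to transcripts annotated as retained introns took a larger share of counts with the compound within each state. The share was 3.82% and 4.29% unstimulated and 4.02% and 4.76% stimulated in vehicle, against 4.65% and 4.52% unstimulated and 5.38%, 5.43% and 5.50% stimulated with the compound. The stimulated groups did not overlap. Over all protein-coding genes tested the same share ran from 1.93% to 2.84%, and the stimulated groups overlapped. Psma3, Psmb4 and Psmd5 held the most retained-intron counts of the members (9021, 3635 and 3083 over all libraries). The share within each of these genes overlapped between the stimulated groups, while those of Psmc2 and Psmd9 were higher with the compound without overlap. A sum also moves with the mix of genes, so it does not show a larger share within each gene. Psma3 was mostly outside coding transcripts, with 19.8% to 31.7% of its counts on transcripts annotated as protein-coding, 43.2% to 51.3% on a transcript class annotated for nonsense-mediated decay, and 23.1% to 34.2% on retained introns.

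Most other genes of the pathway did not pass with the compound. Of 9 tested genes of proteasome-associated proteins and maturation factors, 1 was higher and 0 lower with the compound in stimulated cells, and 0 passed in unstimulated cells. At an unadjusted p under 0.05 the counts were 1 higher and 1 lower in stimulated and 1 higher and 0 lower in unstimulated cells, and DESeq2 gave 1 higher in stimulated and 0 in unstimulated cells. The higher gene was Usp14, a deubiquitinase of the 19S cap, at 0.75 (SE 0.19, adjusted p = 0.0123). Pomp, the maturation factor of the 20S core, was at -0.22 (SE 0.18, adjusted p = 0.438) and had risen with stimulation in vehicle, at 0.67 (SE 0.20, adjusted p = 0.0235). Of 8 ubiquitin shuttle and segregase genes, 2 were lower in stimulated cells, Rad23b at -0.71 (SE 0.16, adjusted p = 0.00719) and Nploc4 at -0.87 (SE 0.15, adjusted p = 0.00166). Of 6 genes of ubiquitin and its activating enzymes 0 passed with the compound in either state (unadjusted, 1 higher and 1 lower in stimulated and 2 higher in unstimulated cells, and with DESeq2 1 lower in stimulated and 1 higher in unstimulated cells).

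Of 5 genes tied to proteasome gene transcription, 2 were higher with the compound in stimulated cells and 0 lower (unadjusted, 2 and 1, and DESeq2, 2 and 0). The shares of all genes tested there were 11.7% higher and 11.4% lower. Nfe2l2, the gene of the antioxidant factor NRF2, rose by 0.56 (SE 0.18, adjusted p = 0.0396) in stimulated and 1.13 (SE 0.20, adjusted p = 0.00632) in unstimulated cells. Ngly1, which encodes the glycanase that activates the product of Nfe2l1, rose by 1.70 (SE 0.21, adjusted p = 0.000207) in stimulated cells. Nfe2l1 itself, whose product drives proteasome genes when the proteasome is inhibited, was at -0.60 (SE 0.24, adjusted p = 0.0895) in stimulated and 0.24 (SE 0.26, adjusted p = 0.638) in unstimulated cells.

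Of 6 tested regulators that induce the immunoproteasome genes in response to interferon, 4 were lower and 1 higher with the compound in stimulated cells, and 4 lower and 0 higher in unstimulated cells (unadjusted 5 and 0, DESeq2 4 and 0). The higher gene was Stat2, an interferon signal transducer, at 1.89 (SE 0.28, adjusted p = 0.000545). Irf1, an interferon regulatory factor gene, was lower, at -0.75 (SE 0.18, adjusted p = 0.01) in stimulated and -0.95 (SE 0.20, adjusted p = 0.0159) in unstimulated cells. Of 7 antigen processing genes next to the immunoproteasome in function, 2 were lower and 0 higher in each state (unadjusted and with DESeq2 also 2 and 0). Tap1, the peptide transporter gene beside Psmb9 on chromosome 17, was at -0.91 (SE 0.20, adjusted p = 0.00593) in stimulated and -0.97 (SE 0.22, adjusted p = 0.0224) in unstimulated cells. Tapbp, the gene of tapasin, which loads peptides, was at -0.60 (SE 0.19, adjusted p = 0.0338) and -0.84 (SE 0.21, adjusted p = 0.0303).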

How the data were processed

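RNA sequencing was deposited as 1 transcript table per library. The submitters' processing notes name cutadapt, kallisto and the mm10 build, and their versions, options and annotation are not given in the labels. Qiagen kits for RNA and Clontech SMART-seq for libraries are named per the labels' protocols. The estimated counts were deposited unnormalized per transcript, and TPM were deposited beside them, per the file headers. Of 109617 transcripts, 108214 matched GENCODE M21 by identifier without version. The estimated counts were summed over 45321 genes and rounded. Strand and molecular identifiers are not mentioned in the labels.

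All 9 libraries entered 1 edgeR 4.0.16 model (R 4.3.3) with a term per group, filterByExpr, TMM scaling, glmQLFit with robust shrinkage and glmQLFTest, 2-sided, with Benjamini-Hochberg adjustment over 14011 genes and a threshold of 0.05. Standard errors (SE) were taken from each log2 fold change and its F statistic. Groups come from sample titles, whose numbers were not found to pair libraries (correlations of deviations from -0.10 to 0.33). No pair of libraries agreed within sampling noise. The script was tested on simulated data. Levels are CPM after TMM scaling, and ratios use TPM.

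Genes named by rule were the 5 immunoproteasome and PA28 members, Psmb5, Psmb6, Psmb7, up to 6 members furthest up and 6 furthest down among those passing in each comparison, and up to 4 genes of each companion list with the smallest p. Values in the other comparisons are given for some of these genes only. Members named beside these were chosen after their values were seen. Members, lists and tests were chosen with earlier results of these data known. Alternatives covered scaling, filters, DESeq2 1.42.0, limma 3.58.1 on log2(TPM + 1) and log2(TPM + 0.1), coding transcripts alone, effective length, a replicate block, leaving out each library, and the 2 groups compared alone. For limma the TPM were used as deposited, with no scaling between libraries.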

Additional observations from a re-analysis of the deposited data

Results flagged for a closer look

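Psma4 responded to stimulation in opposite directions with and without the compound, and the test of that difference passed, with an interaction of -1.05 (edgeR, adjusted p = 0.0422). This interaction kept its sign in all 21 alternatives but lost its call in 14 of them. The rise of Psma4 in vehicle lost its call in 7 of 22. For Psma4 each stimulated vehicle library lay above each unstimulated vehicle library, and each stimulated compound 10 library below each unstimulated compound 10 library. Psmc2, Psmd1 and Psmd2 showed the same arrangement in every library, with interactions of -0.59, -0.53 and -0.44. These did not pass in the fit across all genes (adjusted p = 0.231, 0.313 and 0.455). Their stimulation values did not pass either. In vehicle these were 0.32 for Psmc2, 0.21 for Psmd1 and 0.06 for Psmd2 (edgeR, adjusted p = 0.165, 0.404 and 0.855). Under the compound they were -0.27, -0.32 and -0.38 (adjusted p = 0.232, 0.169 and 0.121). A response of these genes in opposite directions is therefore not shown, and the share of all genes with this arrangement was not counted.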

How the results depend on the processing

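For the 47 named values of proteasome genes, 1033 alternatives gave 829 on the same side, 179 not called any more, 3 newly called and 22 of the opposite sign. The opposite signs all belonged to values that had not passed. Of the 34 values that had passed, limma on log2(TPM + 1) did not call 17. The filters and the leaving out of nuclear ribosomal RNA genes moved no count of calls by over 1.5 times. Groups of 2 limit the precision, and a group left with 1 library is assumed to vary like the others. Leaving out the ribosomal-RNA-rich libraries or ribosomal RNA genes was chosen after seeing the data. The interaction could not be fitted from 2 groups alone.

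The count with the compound in stimulated cells (26) was 11 with limma on log2(TPM + 1) and 12 on log2(TPM + 0.1). On leaving out each library, the median log2 fold change of all members there ran from -0.77 to -0.49, against -0.64 with all libraries. The value closest to 0 came without the first stimulated vehicle library. In unstimulated cells (8) it was 0 and 0 with limma, 5 with effective lengths as an offset, 1 without the ribosomal-RNA-rich libraries, and 0 to 10 on leaving out each library. For stimulation in vehicle (11) it was 4 and 4 with limma, 7 with effective lengths, 7 from the 2 groups alone, 3 without the ribosomal-RNA-rich libraries, and 4 to 17 on leaving out each library. For stimulation under the compound (10) it was 2 to 11 on leaving out each library. The interaction count (1) was 0 with upper-quartile scaling, limma, effective lengths or without the ribosomal-RNA-rich libraries, and 0 to 1 on leaving out each library. The median interaction of all genes was 0.12 with upper-quartile scaling.

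With the replicate block the counts were 22 and 6 for the compound in stimulated and unstimulated cells, 6 and 5 for stimulation in vehicle and under the compound, and 0 for the interaction, while the numbers were not found to pair libraries. Under the block Psmb9 and Psme1 with the compound in stimulated cells were 0.0440 and 0.0434.

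Psmb9 in stimulated cells was 0.0253 with upper-quartile scaling and 0.0236 with effective lengths. Psme1 there was 0.0708 with upper-quartile scaling, 0.00101 from coding transcripts, 0.0117 from the 2 groups alone, 0.0816 without the ribosomal-RNA-rich libraries and 0.0109 without ribosomal RNA genes. In unstimulated cells Psme1 was -0.0589 and -0.0594 with limma and -0.10 with effective lengths. On leaving out each library, the stimulated values ran from -0.29 to 0.0209 for Psmb10, -0.28 to 0.0749 for Psmb8, -0.14 to 0.0434 for Psmb9 and -0.12 to 0.0816 for Psme1. The unstimulated values ran from -0.28 to 0.24 for Psmb6, -0.35 to 0.0157 for Psmb8 and -0.11 to 0.16 for Psme1.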
